A study of Mus musculus with 31 samples.

Results

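Histone genes encode the proteins around which nuclear DNA is wrapped. They were taken here as the protein-coding genes whose GENCODE M21 symbol starts with Hist and a cluster number, or with H1f, H2af or H3f. The annotation holds 82 such genes, and 30 of them were in the deposited count tables: all 30 among the 15987 genes of the epididymal white adipose tissue (eWAT) table and 16 of these also among the 13677 genes of the liver table. The other 52 were in neither table and were not analysed here. RNA was sequenced from liver and eWAT, a fat depot of the abdomen, of wild-type C57BL/6 male mice of the F1 generation. The animals were 24 weeks old, had been given chow from weaning to 6 weeks of age, and had then received LFD for 18 weeks. The diet tag of the labels named 3 arms, LFD, HFD and HFLFD, written LF, HF and HFLF here. Every animal sequenced was itself kept on LFD, so the tag was read as the paternal arm; the series title is the ground for this, and the sample labels do not state it. The liver libraries numbered 4 in LF, 5 in HF and 6 in HFLF, and those of eWAT 4, 6 and 6.

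Core histones H2A, H2B, H3 and H4 form the nucleosome, and linker histone H1 binds the DNA between nucleosomes. Replication-linked copies lie in clusters named Hist1, Hist2 and Hist3, are made mainly while DNA is copied, and end in a conserved stem-loop bound by Slbp instead of a poly(A) tail. Replacement variants such as H2A.Z, macroH2A, H2A.X and H3.3, and the linker histone H1.0, are made outside S phase too, and are known in non-dividing tissues such as liver and fat.

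A liver library held 9225373 to 17268415 counts and an eWAT library 9278083 to 27230205. Levels are given as CPM, the count of a gene scaled to a fixed library total, and a floor of 3 counts stood at 0.174 to 0.325 CPM in liver and 0.11 to 0.323 CPM in eWAT. Of the tissue markers, all 6 hepatocyte genes were in the liver table, with summed levels of 81572 to 112660 CPM, and all 6 adipocyte genes were in the eWAT table, at 26839 to 38106 CPM. Some eWAT libraries also carried RNA of other tissues: all 5 testis germ cell genes listed were in that table, summing to 23.6 CPM in LF 3, 17.2 in LF 6, 76.8 in HF 2 and 116 in HF 6, and to at most 3.99 in the other 12 libraries (the 4 are called testis-high below). None of the 8 histone genes known from testis or oocytes was in either table. B cell genes, 8 of 8 in the table, summed to 4123 CPM in LF 2, 2418 in HF 5 and 1345 in HF 3, against 231 to 719 elsewhere (the 3 are called B-cell-high below). The eWAT library LF 3 also stood apart for the Hist1 genes, and the leading histone results against LF in eWAT are given with and without it. The sources used here do not give the RNA selection step (poly(A) capture or removal of rRNA), so how much histone mRNA without a tail the libraries hold is unknown.

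Of the 30 measured genes, 20 were clustered copies: 3 of 18 H2A genes, 6 of 18 H2B genes, 3 of 12 H3 genes, 5 of 13 H4 genes and the linker genes Hist1h1c, Hist1h1d and Hist1h1e. The remaining 10 were 6 H2A variants, both H3.3 genes and the linker genes H1f0 and H1fx. A stem of 6 paired bases around a loop of 4 was found in the GENCODE transcripts of 16 of these 20 clustered genes and in 25 of the 47 clustered genes in neither table. Where it was found, the protein-coding transcript that ran furthest past it was taken for each gene. In the measured genes it went on for a median of 603 bases (range 23 to 4884, 13 of 16 over 100 bases). In those in neither table the median was 37 bases (3 to 2445, 7 of 25 over 100). An annotated transcript that stops before the element cannot show it, and some annotations were short, such as that of Hist1h4k (312 exon bases). The element is shown for 6 genes whose values are given below, read from the GRCm38 transcripts, 5′ to 3′ as DNA, with both arms of the stem in capitals.
Hist1h4h: ccaaaGGCCCTtttcAGGGCCgcccaca
Hist1h2be: ccaaaGGCTCTtttcAGAGCCacccaac
Hist1h1c: caaaaGGCTCTtttcAGAGCCaccactc
Hist1h1e: ccaaaGGCTCTtttcAGAGCCacccaca
Hist3h2a: ccaaaGGCTCTtttcAGAGCCacccaca
H2afx: acaaaGGCCCTtttaAGGGCCaccacct
Hist1h4h and H2afx had the same 5′ stem arm, and Hist1h1c, Hist1h1e, Hist1h2be and Hist3h2a shared the whole stem and loop. H2afx, a replacement variant by name, carried the element 822 bases before the end of its transcript, Hist3h2a 1643 bases and Hist1h1c 840 bases before it, whereas Hist1h4h ended 46 bases past it.

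Several members share letters or exons with other genes, which bears on their counts. The share of 100-base windows of a gene's transcripts that also occur in another gene was 0% for H2afv, Hist1h4d and Hist2h2be, 38.5% for Hist1h4h, 40.1% for Hist1h2bj and 61.6% for Hist2h3c2. Reads of these windows cannot be assigned to 1 copy by sequence. On the same strand, 708 exon bases of Hist3h2a (33.0%) overlap Trim17, which was in neither table, and 496 bases are common to Hist1h1e and Hist1h2be. H2afy2 overlaps Aifm2 on the opposite strand over 233 bases, and the strand setting of the counting is not given in the sources used here.

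Promoter sequences of RefSeq (GRCm38.p6) matched 27 of the 30 genes. In the 250 bases before the start, the TATA box (TATAAA) occurred on either strand in 10 of 27 members against 12.4% of 32851 promoters, the CCAAT box (CCAAT) in 20 of 27 against 33.8%, and the octamer known from H2B promoters (ATTTGCAT) in 7 of 27 against 1.6%. These are not all separate sites. The windows of Hist1h2ae and Hist1h2bg overlap on opposite strands and share 1 octamer, 1 TATA box and their CCAAT boxes. Hist1h2be had 2 windows, and only 1 of them held the octamer. These promoters are printed because their genes take opposite ends of the tissue comparison or lead the arm comparison in eWAT, with any of these motifs in capitals.
Hist3h2a, chr11:58954435-58954684, plus strand: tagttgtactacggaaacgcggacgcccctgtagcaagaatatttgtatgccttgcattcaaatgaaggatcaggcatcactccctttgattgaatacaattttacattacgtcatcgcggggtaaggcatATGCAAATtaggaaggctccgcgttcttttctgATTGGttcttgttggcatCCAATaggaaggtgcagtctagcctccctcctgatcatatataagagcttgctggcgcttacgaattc
Hist1h4h, chr13:23530794-23531043, plus strand: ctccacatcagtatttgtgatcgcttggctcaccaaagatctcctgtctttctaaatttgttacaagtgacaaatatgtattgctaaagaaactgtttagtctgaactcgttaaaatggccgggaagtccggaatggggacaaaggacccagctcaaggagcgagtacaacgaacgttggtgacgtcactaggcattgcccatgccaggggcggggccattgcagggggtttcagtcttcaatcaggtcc
H1f0, chr15:79027962-79028211, plus strand: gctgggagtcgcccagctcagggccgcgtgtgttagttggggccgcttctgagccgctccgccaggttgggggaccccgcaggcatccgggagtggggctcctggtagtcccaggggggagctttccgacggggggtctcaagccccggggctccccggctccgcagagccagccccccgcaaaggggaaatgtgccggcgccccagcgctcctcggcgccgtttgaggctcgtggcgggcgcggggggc
The Hist3h2a window held 1 octamer and 2 CCAAT boxes in either orientation, and none of the 3 motifs occurred in the windows of Hist1h4h and H1f0. The windows follow the RefSeq starts, which differ from those of GENCODE for some members. That of H1f0 ended at 79028211, before the GENCODE start at 79028450. A match is a description of letters, not of a bound site.

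**Figure D1:**
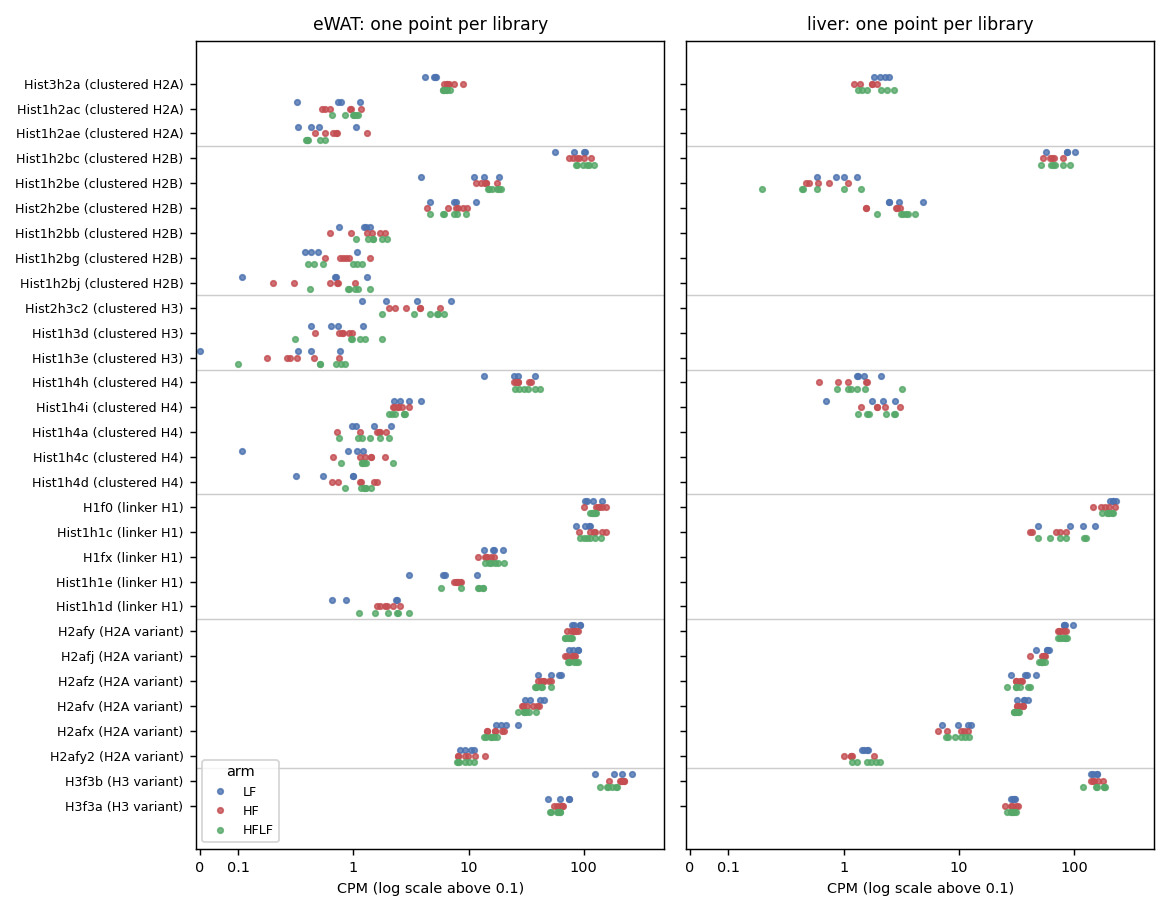
Level of each measured histone gene in every library, eWAT at left and liver at right, in CPM on an axis that is logarithmic above 0.1 and linear below it. Each point is 1 library, coloured by arm, and genes are grouped by role. In both tissues most clustered copies lay below 10 CPM, while Hist1h1c, Hist1h2bc and most replacement variants lay above it.

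Levels differed widely among the members. Per kb of exon, a scale on which genes can be compared, the highest members in liver were H1f0, the linker histone of resting cells (97.6 ± 11.6 CPM per kb, SD, n = 15), Hist1h2bc, an H2B gene (62.6 ± 13.2), Hist1h1c, which encodes linker histone H1.2 (53.5 ± 21.8), H3f3b, which encodes H3.3 (53.1 ± 6.26), and H2afj, an H2A variant (29.1 ± 2.57). The spreads of Hist1h2bc, Hist1h1c and H3f3b overlapped, so their order was not set. In eWAT the highest were Hist1h2bc (81.0 ± 14.3 CPM per kb, n = 16), Hist1h1c (73.8 ± 12.6), H3f3b (64.0 ± 12.03), Hist1h4h, an H4 gene (62.5 ± 14.6), and H1f0 (60.6 ± 7.49), and each neighbouring pair in this order differed by less than its SD. In eWAT 12 of the 30 genes averaged under 3 CPM, and 6 of the 16 did so in liver.

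Several replacement variants were among the least variable members. In liver, H3f3a, the other H3.3 gene, had a coefficient of variation of 6.48% over the 15 libraries, H2afy, which encodes macroH2A1, one of 7.97%, and H2afv, which encodes an H2A.Z, one of 8.63%. Hist1h1c, although abundant, varied by 40.7%, from 41.7 CPM in HF 5 to 153 in LF 6. Its values were 92.1, 119, 48.5 and 153 CPM in LF 1, 2, 3 and 6, and 43.3, 84.9, 70.3, 41.7 and 76.5 in HF 1, 2, 3, 5 and 6. They were 61.9, 127, 76.0, 86.2, 123 and 48.5 in HFLF 1 to 6, and the 3 arms overlapped. The median coefficient of variation was 20.7% over the 16 members in liver and 24.5% over the 30 in eWAT, beside 17.2% over all genes of each table.

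Between the tissues, 2 clustered copies that were among the better measured in fat had low levels in liver. Of these, Hist1h2be fell under the floor of 3 counts in liver HFLF 5, with 2 counts. Hist1h4h (chr13:23531050-23531519 of GRCm38, plus strand) ran from 13.5 to 41.4 CPM in eWAT (median 27.1) and from 0.611 to 3.24 in liver (median 1.30). Hist1h2be (chr13:23583670-23621124, minus strand), an H2B gene, ran from 3.88 to 19.2 CPM in eWAT (median 14.5) and from 0.197 to 1.42 in liver (median 0.597). The tissues did not overlap for either gene, but the share of all genes without such overlap was not counted. With edgeR's quasi-likelihood test over the 12735 genes of both tables, Hist1h4h was lower in liver by a log2 difference of -3.61 ± 0.16 (SE; 12.2-fold; adjusted p = 5.54e-19) and Hist1h2be by -3.45 ± 0.19 (10.9-fold; adjusted p = 8.73e-17). In bulk tissue, fewer cells of a type and less RNA per cell cannot be told apart.

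Among the 16 members in both tables, 14 passed this test, 8 higher and 6 lower in liver, beside 85.5% of all genes that passed (42.6% higher and 42.9% lower), so the count itself is near the background. Lower in liver were also H2afy2, which encodes macroH2A2, at a median of 1.49 CPM against 9.32 in eWAT (log2 difference -1.98 ± 0.10), Hist3h2a, an H2A gene outside the large clusters, at 1.84 against 6.25 (-0.93 ± 0.09), Hist2h2be (-0.59 ± 0.15) and H3f3a (-0.32 ± 0.05). H1f0 was higher in liver, with 147 to 234 CPM against 100 to 157 in eWAT, a log2 difference of 1.44 ± 0.06. The other 7 genes that passed as higher in liver were H2afy (0.76 ± 0.04), H2afv (0.71 ± 0.06), H3f3b (0.46 ± 0.08), Hist1h2bc (0.39 ± 0.09), Hist1h4i (0.34 ± 0.14), H2afz (0.32 ± 0.07) and H2afj (0.16 ± 0.05). Hist1h1c (0.28 ± 0.14, adjusted p = 0.0636) and H2afx (-0.10 ± 0.09, adjusted p = 0.280) did not pass. A few liver genes take a large share of the counts, and the scaling matters here: with library totals alone in place of TMM factors, the median log2 difference of all genes moved from 0.00 to -0.73. Then 7 members had the opposite sign, namely H2afv (-0.03), H3f3b (-0.27), Hist1h2bc (-0.34), Hist1h4i (-0.39), H2afz (-0.42), Hist1h1c (-0.45) and H2afj (-0.58), and H2afy stood at 0.02. Under both scalings 7 members passed with the same sign: H1f0 higher in liver (0.71 with totals), and Hist1h4h, Hist1h2be, H2afy2, Hist3h2a, Hist2h2be and H3f3a lower.

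**Figure D2:**
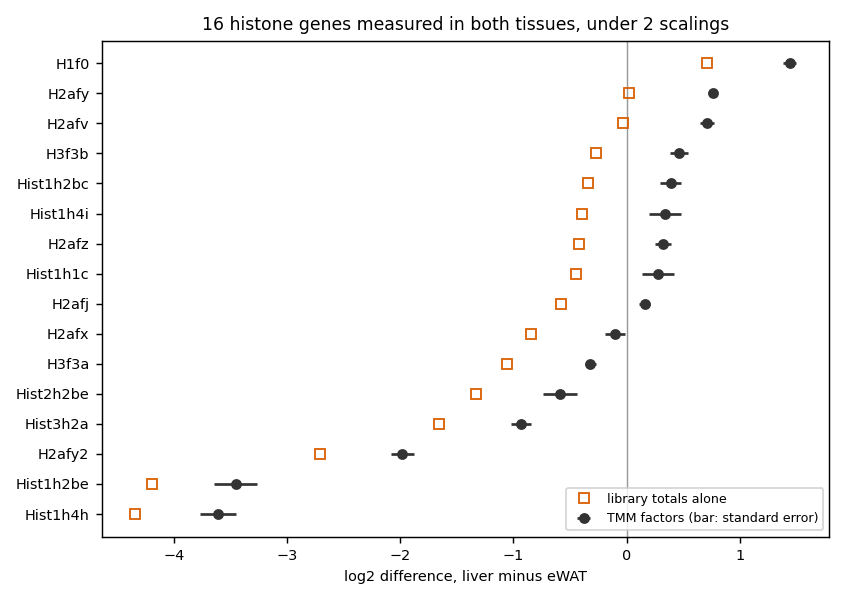
Log2 difference between liver and eWAT for the 16 histone genes in both tables; filled points are edgeR estimates with TMM factors and bars their standard errors, open squares are the estimates with library totals alone. H1f0 lay right of 0 and Hist1h4h, Hist1h2be, H2afy2, Hist3h2a, Hist2h2be and H3f3a left of 0 with both, while the sign of H3f3b, Hist1h2bc, Hist1h4i, H2afz, Hist1h1c, H2afv and H2afj turned with the scaling.

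The arms of eWAT were compared next, to ask whether histone RNA in sons differed with the arm of the paternal line. The gene furthest apart by its p was Hist3h2a (ENSMUSG00000078851, chr11:58954685-58956830 on the plus strand). Its level was 5.24, 4.96, 5.13 and 4.18 CPM in LF 2, 3, 5 and 6. It was 6.75, 6.14, 7.41, 6.44, 8.90 and 6.54 CPM in HF 1 to 6, and 6.90, 6.35, 6.45, 6.04, 6.00 and 6.05 in HFLF 1 to 6. Every HF and HFLF library lay above every LF library, while HF and HFLF overlapped. The log2 difference was 0.50 ± 0.12 for HF against LF (edgeR, unadjusted p = 0.000696, adjusted p = 0.689) and 0.42 ± 0.12 for HFLF against LF (unadjusted p = 0.00312, adjusted p = 0.282), so neither passed the threshold over all genes. Without LF 3 the differences were 0.51 and 0.41, and without the 4 libraries with testis transcripts 0.50 and 0.34. Hist3h2a was the only member whose HF and LF libraries did not overlap, beside 1.03% of all genes in either direction (0.701% higher).

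None of the 30 members passed edgeR's test in any eWAT comparison, where 0.0% of all 15987 genes passed, and none passed with limma voom. None passed with DESeq2 either, but DESeq2 gave several members no adjusted p, so these could not pass. For HF against LF they included Hist3h2a, H2afx and H2afz (DESeq2, unadjusted p = 0.000443, 0.0210 and 0.0390). At an unadjusted p under 0.05 there were 3 of 30 members for HF against LF beside 7.04% of all genes; 1 was higher (beside 2.82%) and 2 were lower (beside 4.22%). For HFLF against LF there were 7 of 30 beside 10.8%, of which 4 were higher (beside 3.78%) and 3 lower (beside 7.06%). For HFLF against HF there was 1 of 30 beside 9.3%, and no member separated those arms, beside 0.669% of genes. The HFLF against LF count depended on the libraries kept: it was 3 of 30 beside 8.06% without LF 3, 3 of 30 beside 7.3% without the 4 libraries with most testis RNA, and 9 of 29 beside 8.34% without the 3 libraries with most B cell RNA. The HF against LF count was 3, 3 and 5 under the same settings, beside 5.67%, 2.72% and 8.22%. Of these, 3, 3 and 2 were higher in HF, against 1 of 3 with all libraries kept. H2afx and H2afz, the 2 lower ones, had an unadjusted p above 0.05 without LF 3 and without the testis-high libraries. Without the B-cell-high libraries both stayed under 0.05 (edgeR, unadjusted p = 0.00278 and 0.0396). HF and HFLF were set against the same 4 LF libraries. Markers of other cells moved with the HFLF against LF comparison. All 6 hepatocyte genes, 6 macrophage genes, 8 B cell genes, 7 T cell genes and 5 testis genes were lower in HFLF, with median log2 differences of -2.59, -0.65, -3.11, -1.12 and -4.56. Several of these rested on single LF libraries. Without LF 2 the B cell median was -0.52 with 6 of 8 lower, and the summed B cell genes of LF 3, 5 and 6 (231, 339 and 287 CPM) lay below all 6 HFLF libraries (343 to 719). The T cell median was -0.34 without LF 2, and LF 2 held 70.4 CPM of these genes against 8.53 to 25.3 in the other LF libraries. The testis genes were highest in LF 3 and LF 6, as given above, and 1 of the 5 could be tested without the testis-high libraries (-0.88). Summed macrophage genes ran from 1212 to 2485 CPM in LF and from 721 to 1437 in HFLF, and summed hepatocyte genes from 53.7 to 292 and from 14.8 to 89.7. Mesothelial genes (3 of 5 higher, median 0.20) and adipocyte genes (4 of 6 higher, median 0.11) were not lower, and the part of these cells in the histone differences was not tested.

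Of the 10 members named H1f, H2af or H3f, 8 were lower in HFLF than in LF, with a median log2 difference of -0.14 and a range of -0.38 to 0.09. The median was -0.06 with 6 of 10 lower without LF 3, likewise -0.06 with 6 of 10 lower without the testis-high libraries, and -0.15 with 9 of 10 lower without the B-cell-high ones. In HF against LF it was -0.12 with 7 of 10 lower, and under the same settings -0.09, 0.01 and -0.22, so its sign turned without the testis-high libraries. H2afx, the H2A.X that is phosphorylated at DNA breaks, was at 19.0, 26.7, 17.2 and 21.1 CPM in LF 2, 3, 5 and 6, at 14.4 to 20.4 in HF (median 16.9) and at 13.5 to 17.5 in HFLF (median 15.7). LF 3 was the highest of all, and 1 LF library lay within the HFLF range. Its log2 difference was -0.32 ± 0.12 for HF (adjusted p = 0.689) and -0.38 ± 0.12 for HFLF (adjusted p = 0.282). These were -0.19 and -0.26 without LF 3, -0.03 and -0.16 without the testis-high libraries, and -0.49 and -0.45 without the B-cell-high ones. H2afz, an H2A.Z gene, ran from 39.9 to 63.4 CPM in LF (median 56.4), from 39.9 to 51.7 in HF (median 44.6) and from 37.8 to 52.1 in HFLF (median 40.4), with overlap throughout. It differed by -0.28 ± 0.12 for HF and -0.31 ± 0.12 for HFLF (adjusted p = 0.689 and 0.364). These were -0.22 and -0.26 without LF 3, -0.03 and -0.06 without the testis-high libraries, and -0.35 and -0.36 without the B-cell-high ones. H2afy was at 93.6, 92.0, 82.1 and 79.7 CPM in LF, and its 6 HFLF libraries, from 68.4 to 79.0, all lay below these, by a smaller relative step of -0.19 ± 0.06 (adjusted p = 0.289). That difference was -0.17 without LF 3 and -0.20 without the testis-high libraries, and HF, at 71.6 to 89.2 CPM, overlapped both. It was the only member whose HFLF libraries all lay below LF, beside 0.970% of genes, and Hist3h2a the only one with all above, beside 0.250%. H2afv (-0.22 for HFLF), H2afj (0.00), H2afy2 (-0.07), H3f3a (-0.12) and H3f3b (-0.16) did not reach an unadjusted p of 0.05 against LF in either arm.

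**Figure D3:**
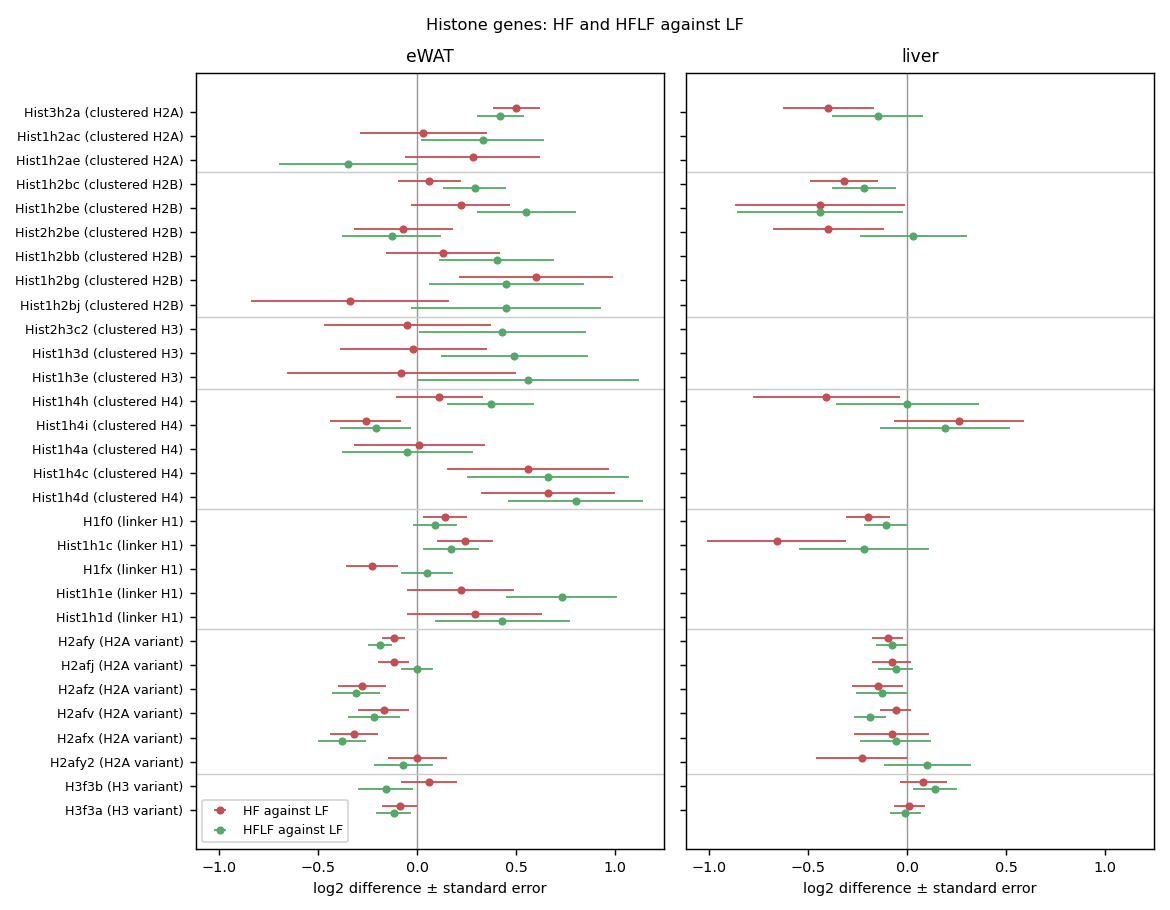
Log2 difference of HF (red) and of HFLF (green) against LF for each measured histone gene, eWAT at left and liver at right; points are edgeR estimates and bars standard errors, and genes are grouped by role. In eWAT the H2A variants lay at or left of 0 and most clustered copies right of it in HFLF, none passing the threshold over all genes, and in liver most points lay left of 0 with wider bars for the clustered copies.

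The 17 measured Hist1 genes, spread over 1.72 Mb of chromosome 13 (22040636 to 23761230), were higher in HFLF than in LF in 14 cases, with a median log2 difference of 0.43 (range -0.35 to 0.80) beside 0.01 for all genes. Against LF, HF had 13 of 17 higher with a median of 0.13. HFLF against HF had 13 of 17 higher with a median of 0.24, and this median was 0.15 to 0.26 under the alternatives run. In the main fit, LF entered that comparison only through the shared scaling and spread. Hist1h1e, which encodes linker histone H1.4, was at 11.8, 3.02, 6.20 and 5.99 CPM in LF 2, 3, 5 and 6, at 7.45 to 8.60 in HF (median 8.07), and at 13.3, 8.56, 5.75, 12.3, 13.4 and 12.1 in HFLF 1 to 6. HF was tightly grouped, and the other arms spanned it. It differed by 0.73 ± 0.28 for HFLF against LF (adjusted p = 0.349) and by 0.51 ± 0.24 for HFLF against HF (adjusted p = 0.538). Its exon neighbour Hist1h2be was at 18.2, 3.88, 13.7 and 11.1 CPM in LF, 11.6 to 17.5 in HF and 14.8 to 19.2 in HFLF, a difference of 0.55 ± 0.25 for HFLF against LF (adjusted p = 0.439). For HFLF against LF, Hist1h1e was at 0.48 without LF 3, 0.34 without the testis-high libraries and 1.1 without the B-cell-high ones, and Hist1h2be at 0.27, 0.14 and 0.81. Hist1h4d, an H4 gene of low level, was at 0.316 to 0.990 CPM in LF, 0.651 to 1.61 in HF and 0.845 to 1.42 in HFLF, a difference of 0.66 ± 0.34 for HF and 0.80 ± 0.34 for HFLF (adjusted p = 0.689 and 0.402). Without LF 3 the Hist1h4d differences were 0.57 and 0.70. Hist1h1e, Hist1h2be, Hist1h4d and Hist3h2a were the 4 members with an unadjusted p under 0.05 and a higher value in HFLF than in LF. Without LF 3 only 1 member, Hist3h2a, met both conditions.

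The library LF 3 stood apart for the Hist1 genes. It was below all 15 other eWAT libraries for 9 of the 17 Hist1 genes, and below their median for 16. It held Hist1h2be at 26.2% of the median of the others, Hist1h1e at 35.6%, Hist1h4h at 49.5% (13.5 against 24.6 to 41.4 CPM), Hist1h2bc at 56.5% and Hist1h1c at 75.3%. Its Hist1h4c and Hist1h2bj counts were at 0.108 CPM, under the floor, and Hist1h3e was at 0. Hist1h2bg, at 1.08 CPM, was the 1 Hist1 gene above the median of the others. LF 3 did not have little histone RNA throughout: H3f3b (264 CPM), H3f3a (74.5 CPM), H2afx (26.7 CPM) and Hist2h2be (11.5 CPM) were all highest there of the 16 libraries. The low values were not confined to Hist1, since Hist2h3c2 was lowest there of the 16 libraries, at 1.19 CPM. Without LF 3, the Hist1 median for HFLF against LF was 0.21 with 14 of 17 higher, and that for HF against LF was -0.06 with 6 of 17 higher. Without the testis-high libraries, of which LF 3 is 1, these were 0.19 with 14 of 17 and -0.09 with 8 of 17, and without the B-cell-high libraries 0.39 with 14 of 16 and 0.08 with 9 of 16.

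**Figure D4:**
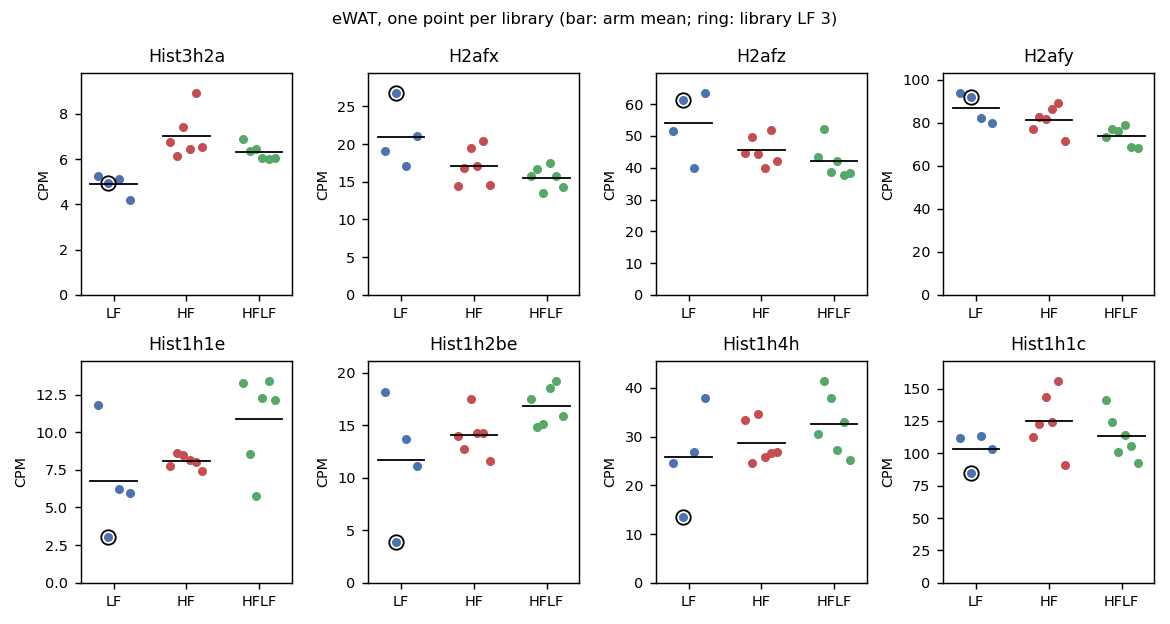
CPM of 8 histone genes in each eWAT library by arm; each point is 1 library, the bar is the mean of the arm, and the ring marks library LF 3. Hist3h2a had no overlap between LF and the other arms, and the ringed library was the lowest of all 16 for Hist1h1e, Hist1h2be, Hist1h4h and Hist1h1c and the highest for H2afx.

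Since replication-linked copies are known as S phase genes, the Hist1 sums were set beside those of 36 genes of S phase and mitosis. All 36 listed genes were in the eWAT table, and their summed level was 316, 474, 238 and 335 CPM in LF 2, 3, 5 and 6, 235 to 292 in HF and 178 to 240 in HFLF. LF 3 had the highest sum and, for the 6 genes that mark dividing cells, 76.8 CPM against 8.98 to 35.2 in the other libraries. Summed Hist1 levels were 285, 169, 257 and 271 CPM in the same 4 LF libraries, 230 to 321 in HF and 247 to 328 in HFLF. The library with the highest S phase and mitosis sum thus had the lowest Hist1 sum. Most of that Hist1 sum in LF 3 came from Hist1h1c (85.1 CPM) and Hist1h2bc (55.7 CPM). Both were also high in liver, with medians of 76.5 and 66.8 CPM, so the sum is no measure of replication-linked copies alone. In HFLF against LF, 36 of 36 S phase and mitosis genes were lower, with a median log2 difference of -1.0, and 0 passed over all genes. The median was -0.58 with 35 of 36 lower without LF 3, and -0.45 with 33 of 36 lower without the testis-high libraries. Without LF 5, 13 genes of the whole table passed, and 4 of them were in this list. In HF against LF, 36 of 36 were lower with a median of -0.56, which was -0.16 without LF 3 and -0.03 without the testis-high libraries. The part of dividing cells or of testis RNA in the histone differences was not tested.

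**Figure D5:**
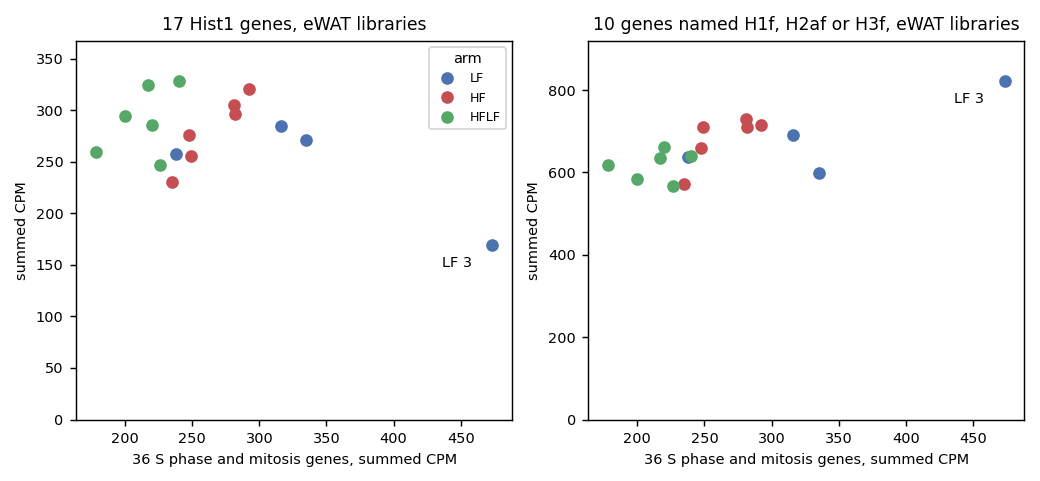
Summed CPM of the 17 Hist1 genes (left) and of the 10 genes named H1f, H2af or H3f (right) against the summed CPM of 36 S phase and mitosis genes, 1 point per eWAT library, coloured by arm. LF 3 lies at 474 CPM of S phase and mitosis genes with the lowest Hist1 sum (169 CPM) and the highest sum of the H1f, H2af and H3f genes (821 CPM).

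HFLF was also compared with HF directly. The LF libraries did not enter the arm means, but all 3 arms shared the scaling and the spread. H1fx, which encodes linker histone H1.10, was at 15.8, 11.997, 13.9, 16.5, 14.1 and 14.3 CPM in HF 1 to 6 and at 13.8, 17.04, 17.9, 15.7, 14.9 and 20.3 in HFLF 1 to 6, which overlap. Its difference of 0.28 ± 0.12 (adjusted p = 0.506) had the smallest p of the 30 members. Hist1h2ae, an H2A gene at 0.388 to 0.561 CPM in HFLF and 0.459 to 1.30 in HF, differed by -0.63 ± 0.30, and Hist1h2bj, an H2B gene at 0.421 to 1.38 against 0.199 to 1.04 CPM, by 0.79 ± 0.43 (adjusted p = 0.544 and 0.582). The 3 clustered H3 genes, Hist1h3d, Hist1h3e and Hist2h3c2, were each higher by 0.48 to 0.64, with unadjusted p above 0.05.

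In liver none of the 16 members passed edgeR's test in any comparison of arms, where 0.0% of 13677 genes passed, and none passed with limma voom or DESeq2. At an unadjusted p under 0.05 there were 0 of 16 members for HF against LF beside 3.60% of genes, 1 of 16 for HFLF against LF beside 5.47%, and 0 of 16 for HFLF against HF beside 1.86%. For no member did the libraries of 2 arms separate, beside 1.40%, 1.18% and 0.146% of all genes. Most estimates were negative: 13 of 16 members were lower in HF than in LF (median -0.18) and 12 of 16 lower in HFLF (median -0.07), beside medians of 0.00 for all genes.

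The H2B gene Hist1h2bc had the smallest p in HF against LF. It was at 87.6, 103, 57.3 and 87.7 CPM in LF 1, 2, 3 and 6, at 66.8, 79.7, 65.0, 53.7 and 61.5 in HF 1, 2, 3, 5 and 6, and at 69.1, 80.1, 66.2, 92.7, 63.6 and 51.4 in HFLF 1 to 6. LF 3 lay among the lower values of every arm, and the arms overlapped. The log2 difference was -0.32 ± 0.17 for HF and -0.22 ± 0.16 for HFLF (adjusted p = 1.00 and 0.884). Hist1h1c differed by -0.66 ± 0.35 for HF against LF, with values that overlapped as given above, H1f0 by -0.20 ± 0.11 (147 to 226 against 205 to 234 CPM), and Hist3h2a by -0.40 ± 0.23 (1.22 to 1.94 against 1.84 to 2.49 CPM). H2afv was at 31.9, 37.0, 37.1 and 39.7 CPM in LF and at 29.9 to 33.2 in HFLF (median 31.2), and its difference of -0.19 ± 0.08 (adjusted p = 0.862) was the 1 with an unadjusted p under 0.05. After Hist1h2bc, H3f3b (0.14 ± 0.11) and H2afy (-0.08 ± 0.08) had the next smallest p in HFLF against LF, and in HFLF against HF the smallest p belonged to H2afv (-0.13 ± 0.07), Hist2h2be (0.43 ± 0.26), H2afy2 (0.33 ± 0.21) and Hist1h1c (0.45 ± 0.32), all with an adjusted p of 1.00.

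The difference of Hist3h2a had opposite signs in the tissues, 0.50 in eWAT and -0.40 in liver for HF against LF. The interaction of tissue and arm, in 1 edgeR fit of all 31 libraries, was -0.91 ± 0.23 (liver minus eWAT; unadjusted p = 0.000470, adjusted p = 0.956). No member passed as an interaction in any of the 3 contrasts, where 0.0% of 12735 genes passed. At an unadjusted p under 0.05 there were 3 of 16 members for HF against LF beside 4.88% of genes, 2 of 16 for HFLF against LF beside 5.84%, and 0 of 16 for HFLF against HF beside 4.94%. For HF against LF the others were Hist1h1c (-0.91 ± 0.36) and H1f0 (-0.36 ± 0.16), and for HFLF against LF they were Hist3h2a (-0.57 ± 0.23) and Hist1h2bc (-0.52 ± 0.23). These 3 contrasts share libraries with the comparisons above.

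The genes that supply and place histones were nearly level between arms by their medians. Of 36 genes for histone transcription, stem-loop processing and decay, 33 were in each table, and of 40 histone chaperones 40 were in the eWAT table and 38 in the liver table. None passed over all genes in any comparison of arms. Median log2 differences of the supply genes were -0.07 for HF and -0.07 for HFLF against LF in eWAT, and 0.00 and -0.03 in liver. For chaperones they were -0.02 and -0.04 in eWAT and 0.00 and -0.01 in liver. At an unadjusted p under 0.05, 1 of 33 supply genes was higher and 4 were lower, and 0 of 40 chaperones were higher and 6 lower, in eWAT HFLF against LF, beside 3.78% of all genes higher and 7.06% lower. Without LF 3 these were 0 and 3 supply genes and 0 and 5 chaperones, and the chaperone median was 0.02; without the testis-high libraries they were 0 and 2, and 0 and 1. Chaf1b, a subunit of the CAF-1 complex that loads new H3 and H4, was at 1.74 ± 0.13 CPM (SD) in HFLF and 3.41 ± 1.08 in LF (-0.92 ± 0.24, adjusted p = 0.282). Asf1b, a chaperone of new H3 and H4, was at 1.44 ± 0.32 against 3.37 ± 2.17 CPM (-1.14 ± 0.34), and Mcm2, a helicase subunit that also binds H3 and H4, at 7.77 ± 1.14 against 11.97 ± 2.57 (-0.57 ± 0.16), both with an adjusted p of 0.282. Without LF 3 the differences of Chaf1b, Asf1b and Mcm2 were -0.72, -0.65 and -0.51, and without the testis-high libraries -0.55, -0.50 and -0.36. Of the supply genes, E2f4, a transcription factor of the cell cycle, differed by -0.26 ± 0.09 and Snrpf, a core protein of the spliceosome and of U7 particles, had -0.33 ± 0.13. In liver, E2f2 was at 1.22 ± 0.26 CPM in HF and 2.55 ± 1.17 in LF (-0.99 ± 0.34, adjusted p = 1.00), Lsm1 had -0.33 ± 0.11 and the replication fork gene Mms22l -0.90 ± 0.30 for HFLF against LF.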

How the data were processed

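Counts per gene, deposited by the authors for liver and eWAT after genes of low CPM were left out per the file names, were used as they stood. The submitters' processing notes name STAR and GRCm38.p6. What tool counted the reads, with which annotation and strand setting, is not given in the sources used here. Tables of values named RPKM were not used, since their lengths do not follow the genes. Members and gene lists were chosen with earlier results of these data known. Symbols, exon lengths and coordinates came from GENCODE M21, which named 13667 liver and 15974 eWAT identifiers. Replicates of a group all differed by more than sampling noise. No label says that animals came from separate litters, so p-values measure the spread between these animals.

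Each tissue was fitted with edgeR 4.0.16 in R 4.3.3 (TMM factors, robust quasi-likelihood, 1 term per arm, all 3 arms sharing the spread), and the tissues in 1 fit of the 12735 genes of both tables. P-values were adjusted by Benjamini and Hochberg over all genes, with a threshold of 0.05. filterByExpr removed 0 genes. Log2 differences are edgeR estimates ± standard errors; CPM used library totals. Alternatives were RLE factors, DESeq2 1.42.0, limma 3.58.1 voom, other filters, a replicate block, only 2 arms, and libraries left out; library totals without TMM were added after seeing the data. On simulated counts for HF against LF, 76.5% of 98 genes changed by a log2 of 1 were recovered in liver. In eWAT 61% of 100 were recovered, and false calls numbered 3 in liver and 7 in eWAT. The changed genes were drawn from all genes, so these rates are not those of the histone members. Named genes were, per comparison of arms, the 4 members of smallest p and any that passed; between tissues the 5 largest passing differences each way; per tissue the 5 highest per kb; and a set of variants with Hist3h2a. Other genes named, where a group or library is described, were chosen after their values were seen.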

Additional observations from a re-analysis of the deposited data

Results flagged for a closer look

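Among the 20 histone genes named by rule, 105 groups of 4 to 6 libraries were checked for a library set apart from the others of its arm, and 6 were found; chance alone sets apart about 1 in 20. In liver, H2afj was low in HF 1, at 41.8 CPM against 52.3 to 55.7 in the other HF libraries, and H2afy2 was high in the same library, at 1.85 CPM against 1.02 to 1.19. H2afy was high in liver LF 2, at 97.7 CPM against 82.2 to 83.6. Hist1h4h was high in liver HFLF 2, at 3.24 CPM against 0.881 to 1.52. In eWAT, H3f3b was low in HF 6, at 165 CPM against 207 to 225, a library that also had the highest sum of testis germ cell genes (116 CPM). Hist1h2ae was high in eWAT HF 3, at 1.30 CPM against 0.459 to 0.716.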

How the results depend on the processing

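The count of members that passed stayed at 0 in every comparison of arms and for the interaction under each alternative run, including each library left out in turn. Between liver and eWAT it was 14, and 13 to 15 with single libraries left out. With library totals alone, a setting added after seeing the data, 7 of 16 members had the opposite sign between tissues: of the genes named for that comparison H3f3b (-0.27), Hist1h2bc (-0.34) and H2afv (-0.03), and also H2afj (-0.58), Hist1h1c (-0.45), H2afz (-0.42) and Hist1h4i (-0.39). H2afy (0.02) no longer passed. The all-gene median moved by the same scaling to -0.73. DESeq2 called 12, 69 and 52 genes in eWAT (HF against LF, HFLF against LF, HFLF against HF) and 1, 11 and 0 in liver, and 23 for the interaction, none of them a histone gene, where edgeR called 0. Several members had no adjusted p from DESeq2 and could not be called. Among them were Hist3h2a in eWAT HF against LF and H1fx in eWAT HFLF against HF. With edgeR, leaving out eWAT LF 5 gave 13 genes in HFLF against LF, and leaving out the 3 B-cell-high libraries 17 for the interaction (2 without liver HFLF 4).

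Same-numbered libraries did not deviate together in every pair: their correlations exceeded 0.1 in 3 of 4, 1 of 4 and 1 of 5 liver pairs (LF and HF, LF and HFLF, HF and HFLF), in 1 of 4, 2 of 4 and 4 of 6 eWAT pairs, and in 2 of 14 pairs of liver and eWAT. With the replicate block, 0 members passed in every comparison of arms and in the interaction, and 13 passed between tissues. Under the block Hist3h2a differed by 0.51 in HF and 0.44 in HFLF against LF in eWAT.

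Leaving out single libraries moved Hist3h2a in eWAT between 0.43 and 0.54 (HF) and between 0.37 and 0.45 (HFLF), Hist1h1e between 0.48 and 1.1 (HFLF), and Hist1h1c in liver HF between -0.90 and -0.42. Members under 3 CPM rest on few counts per library, so that small differences were not detectable there.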
